A study of Mus musculus with 8 samples.

Results

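A group of 35 genes that act in G2 phase and mitosis was followed through RNA-seq libraries of mouse E14 embryonic stem cells. The genes were taken by symbol from a given list of cyclins, mitotic kinases, checkpoint, centromere, spindle and cytokinesis genes, and all 35 were found among the 54232 genes of the deposited count tables. E14 is an established mouse embryonic stem cell line, grown here on gelatin in medium with serum and leukaemia inhibitory factor, and all 8 libraries carried the strain label 12910la. The 8 libraries formed 4 groups of 2. In the first experiment, libraries titled Ssrp1_KO came from cells in which Ssrp1, a subunit of the FACT histone chaperone, was knocked out with Cas9 and a guide RNA, and libraries titled Ssrp1_Control carried the genotype label control. In the second, libraries titled Usp7_KD came from cells given an shRNA against Usp7, a deubiquitinase, in the pSuper puro vector, and libraries titled Usp7_Control again carried the genotype label control. The protocol gives transfection with 1000 ng of plasmid, 24 h before the start of puromycin, and 3 days in 1 ug/ml puromycin. It names wild-type cells that received the vector, without tying them to single samples. The labels do not say how many knockout clones or guides were used, nor whether the replicates were grown separately. The p-values therefore weigh the groups against the spread of these libraries alone, which may be technical.

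Depth ranged from 15879056 to 18361130 counts per library. Levels are given as CPM, counts scaled to a common library size after all 8 libraries were normalised together with TMM factors, and the 2 values of a group are listed in the order replicate 1 and replicate 2. All 10 embryonic stem cell markers had counts in every library. The summed level of 10 fibroblast markers lay between 18.8 and 61.2 CPM, highest in the library labelled knockout replicate 2, with 6 to 10 of the 10 having counts. The matrix genes Dcn and Lum were at 0 to 2 counts. Others of the list were higher, with Col1a1 at 10 to 114, Pdgfrb at 57 to 354 and Thy1 at 79 to 583 counts. Usp7 itself was at 371 and 359 CPM in its controls and 111 and 122 CPM in the knockdown libraries (3.13-fold lower, adjusted p = 0.0012, edgeR). Ssrp1 was at 462 and 479 CPM in its controls and at 412 and 123 CPM in the knockout libraries (log2 -0.77, adjusted p = 0.41). The library labelled knockout replicate 1 thus held nearly as much Ssrp1 RNA as the controls. A small deletion made by Cas9 need not lower the RNA, so this gene is a weak check of that label. The reason for the level in this library was not tested. Each knockout result is given without that library where it bears on the call.

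Entry into mitosis is driven by cyclin B bound to Cdk1, which the Cdc25 phosphatases activate, and Plk1 and the Aurora kinases act beside it. The spindle checkpoint, built from Bub1, Bub3, BubR1 (gene Bub1b), Mad2 (gene Mad2l1) and Mps1 (gene Ttk), holds back Cdc20 and the anaphase-promoting complex until every kinetochore is attached. Many of these genes are transcribed late in the cell cycle. Their promoters often carry a cell cycle homology region (CHR), bound by MuvB complexes such as DREAM and B-Myb-MuvB-Foxm1, together with CCAAT boxes bound by NF-Y. Embryonic stem cells divide fast and keep this programme high.

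The promoters show what the genes have in common apart from their function, so 6 of them are printed: Cdk1, Cdc20, Ube2c and Top2a as examples with the paired elements, and Bub1 and Mad2l1, chosen after their values were seen, because they carry the largest changes in the results that follow. Each is the 250 bases before the RefSeq start on build GRCm38.p6, written 5′ to 3′ along the gene. Capitals mark a CHR (TTTGAA or TTCGAA, either strand) or a CCAAT box (CCAAT, either strand). The stretches are chr10:69352913-69353162 (minus strand) for Cdk1, chr4:118437344-118437593 (minus) for Cdc20, chr2:164769679-164769928 (plus) for Ube2c, chr11:99024190-99024439 (minus) for Top2a, chr2:127831860-127832109 (minus) for Bub1 and chr6:66534971-66535220 (plus) for Mad2l1.
Cdk1: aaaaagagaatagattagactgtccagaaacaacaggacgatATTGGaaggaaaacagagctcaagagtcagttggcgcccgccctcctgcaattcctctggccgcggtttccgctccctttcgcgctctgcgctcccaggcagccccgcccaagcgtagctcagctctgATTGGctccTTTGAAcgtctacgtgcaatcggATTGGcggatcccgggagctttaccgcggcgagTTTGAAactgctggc
Cdc20: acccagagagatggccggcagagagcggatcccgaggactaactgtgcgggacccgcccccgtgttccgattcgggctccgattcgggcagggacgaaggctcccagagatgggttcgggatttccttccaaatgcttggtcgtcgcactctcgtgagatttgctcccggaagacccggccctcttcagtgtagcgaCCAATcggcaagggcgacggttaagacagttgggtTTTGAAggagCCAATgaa
Ube2c: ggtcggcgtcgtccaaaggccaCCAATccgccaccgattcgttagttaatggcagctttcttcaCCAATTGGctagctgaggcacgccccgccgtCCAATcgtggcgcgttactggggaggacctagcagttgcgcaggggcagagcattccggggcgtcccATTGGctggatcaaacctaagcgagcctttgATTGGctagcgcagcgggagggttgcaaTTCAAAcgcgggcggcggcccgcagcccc
Top2a: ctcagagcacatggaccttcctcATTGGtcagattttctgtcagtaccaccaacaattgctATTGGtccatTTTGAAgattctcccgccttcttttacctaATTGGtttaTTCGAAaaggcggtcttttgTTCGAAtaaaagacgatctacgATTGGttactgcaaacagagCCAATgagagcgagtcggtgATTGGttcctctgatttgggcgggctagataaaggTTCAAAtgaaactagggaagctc
Bub1: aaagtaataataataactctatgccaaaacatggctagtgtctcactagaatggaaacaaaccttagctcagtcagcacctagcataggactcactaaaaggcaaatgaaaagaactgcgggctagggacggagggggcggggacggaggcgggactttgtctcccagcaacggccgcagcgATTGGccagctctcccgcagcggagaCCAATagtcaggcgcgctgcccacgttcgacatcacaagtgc
Mad2l1: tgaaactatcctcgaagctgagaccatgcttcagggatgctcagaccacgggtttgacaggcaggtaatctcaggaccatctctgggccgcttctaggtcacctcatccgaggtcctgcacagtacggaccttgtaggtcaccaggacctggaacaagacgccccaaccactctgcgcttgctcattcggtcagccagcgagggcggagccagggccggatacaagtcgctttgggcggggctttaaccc

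In Cdk1 the CHR nearest the start began 15 bases before it, with CCAAT boxes beginning 48 and 80 bases before it. In Cdc20 a single CHR began 18 bases before the start, between CCAAT boxes at 53 and 8 bases before it. Top2a held 4 CHR and 6 CCAAT matches in this stretch. Bub1 held CCAAT boxes 68 and 42 bases before the start, and its CHR began at base 15 after the start, just beyond the printed stretch. The Mad2l1 stretch held neither sequence. Its RefSeq start lies upstream of the start of the GENCODE gene model, so the window may not cover every start of that gene.

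RefSeq windows of 300 bases (250 before and 50 after the start) were at hand for 28 of the 35 genes, all but Aurkb, Ccna2, Cdc25c, Foxm1, Incenp, Kif20a and Tpx2. A CHR stood in the window of 23 of these 28 genes (82.1%), against 21.7% of 27025 genes with a window. A CCAAT box stood in 23 (82.1%, against 41.1%), and both stood in 21 (75.0%, against 8.61%). In 1 window of the 35 genes a CHR and a CCAAT match overlapped. For 21 genes (75.0%, against 7.0%) the CHR lay within 60 bases of the start. A wider set of mitosis genes held a CHR in 44.7% and S phase genes in 25.0% of the genes with a window. Birc5, Mad2l1 and Nusap1 held neither sequence. These are matches of letters, not measured binding, and a gene without one may hold the element elsewhere.

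**Figure D1:**
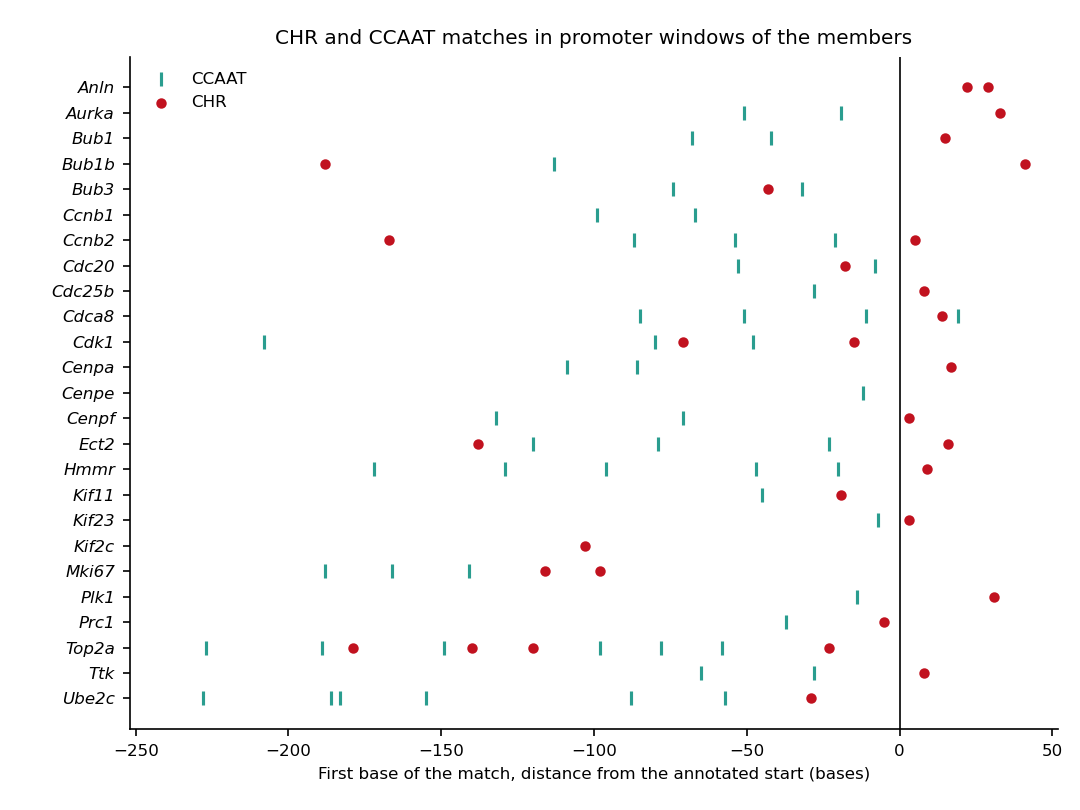
Position of each CHR match (red points) and CCAAT match (green ticks) in the RefSeq promoter window of the 25 genes with at least 1 match. The x axis is the distance in bases of the match's first base from the annotated start (vertical line); 1 window is drawn per gene. CHR matches gather around the start, 21 genes having one within 60 bases of it, and CCAAT matches lie mostly further upstream.

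All 35 genes were expressed in every library. Exon length was taken over all annotated exons of a gene merged, so the order between genes given here depends on the annotation too. Per kilobase of exon, the mean level over the 8 libraries was highest for Cdc20, the activator of the anaphase-promoting complex, at 191 CPM per kb. The cyclin gene Ccnb1 (105) and the E2 enzyme gene Ube2c (105) followed at almost the same length-scaled level, then Ccnb2 (97.0), the kinase gene Plk1 (83.3) and the topoisomerase gene Top2a (83.1). The lowest per kilobase were the phosphatase genes Cdc25c (5.81) and Cdc25b (9.92). The kinetochore genes Cenpe (10.4) and Cenpf (10.7) and the transcription factor gene Foxm1 (12.3) came next. The order was much alike in all 4 groups: 8 genes (Aurka, Bub1b, Ccnb1, Ccnb2, Cdc20, Plk1, Top2a and Ube2c) were among the 10 highest per kilobase in each. Summed over the 35 genes, the level was 7404 and 7195 CPM in the Ssrp1 controls, 6523 and 6787 CPM in the knockout, 6721 and 6461 CPM in the Usp7 controls and 6667 and 6173 CPM in the knockdown. As a share of the unscaled counts the 35 genes took 0.622% and 0.724%, 0.605% and 0.711%, 0.646% and 0.699%, and 0.707% and 0.675% in the same order. These shares overlap between the groups of each experiment, and the Ssrp1 controls led only in the TMM-scaled sum. In bulk RNA, fewer cells in G2 or mitosis and less of these RNAs per cell cannot be told apart.

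**Figure D2:**
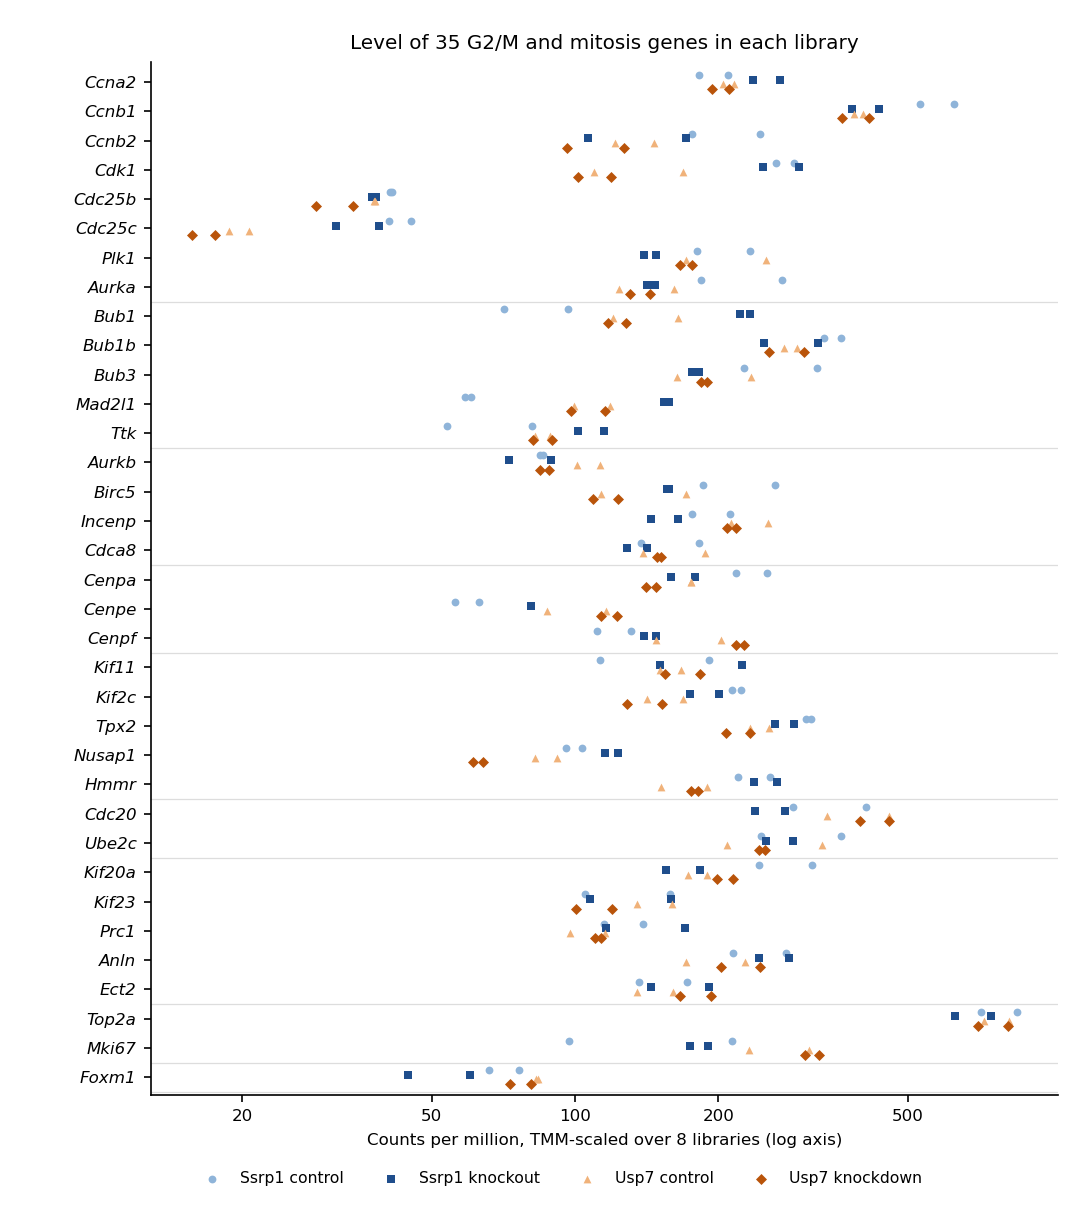
Level of each of the 35 genes in each of the 8 libraries, in TMM-scaled CPM on a log axis, with genes ordered by role and 1 symbol per library. The pale circles of the Ssrp1 controls stand apart to the left for Bub1 and Mad2l1 and to the right for Ccnb1, and Mki67 differs between the 2 Ssrp1 controls (97.0 and 214 CPM).

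The Ssrp1 comparison asked which of these genes differed between knockout and control cells. Bub1 and Mad2l1, both of the spindle checkpoint, rose in the knockout, and none of the other 33 genes passed the test in either direction. Bub1, the checkpoint kinase that marks the centromere, was at 70.9 and 96.4 CPM without and 233 and 222 CPM with the knockout. The groups did not overlap, and the change was 2.80-fold (log2 1.49, SE 0.28, adjusted p = 0.02, edgeR quasi-likelihood test with Benjamini-Hochberg adjustment over all genes). Mad2l1, whose protein binds and holds Cdc20, was at 60.4 and 58.8 CPM in control cells and, with the knockout, 158 and 154 CPM. Here too the groups were apart, with a change of 2.71-fold (log2 1.44, SE 0.26, adjusted p = 0.018, edgeR).

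Across all 15757 genes tested, 585 (3.71%) passed at an adjusted p under 0.05, of which 534 (3.39% of those tested) were higher and 51 (0.324%) lower. The 2 of 35 genes called is a share near that background, so the count says nothing particular of the group. At an unadjusted p under 0.05, 3 genes were higher (Bub1, Mad2l1 and Ttk) and 1 lower (Kif20a), against 18.2% of all genes (13.3% higher and 4.95% lower), and DESeq2 called Bub1 and Mad2l1 higher and 0 lower, against 7.04% (5.70% and 1.34%). The median log2 change was -0.12 over the 35 genes and 0.03 over all genes tested, with 15 genes above 0 and 20 below. The 2 libraries of a group did not overlap those of the other in 23 genes (50.8% of all genes tested), 7 with the knockout above (25.6% of all genes tested) and 16 with the knockout below (25.3%). Bub1 and Mad2l1 did not pass the test once control replicate 1 was left out (log2 1.23, adjusted p = 0.25, and log2 1.40, adjusted p = 0.19, edgeR), when 0.117% of all genes were called. Without control replicate 2, Bub1 kept its call and Mad2l1 did not, when a smaller share of all genes was called than in the full fit. Without the library labelled knockout replicate 1, both were called (log2 1.40 for Bub1 and 1.36 for Mad2l1). A larger share of all genes was called there than in the full fit, so those 2 calls are not firmer support.

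**Figure D3:**
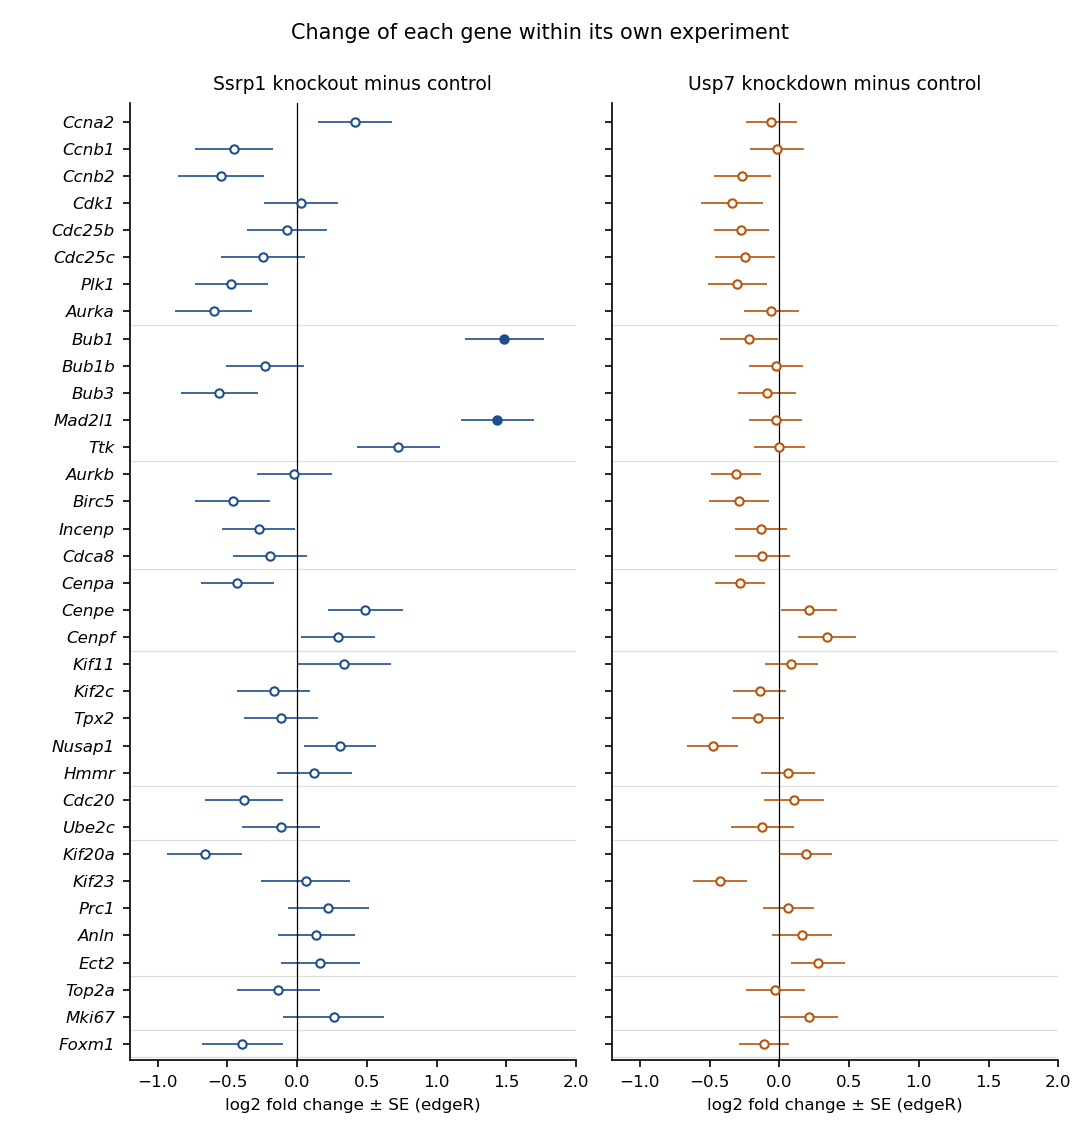
Fitted log2 fold change of each of the 35 genes in the Ssrp1 experiment (left) and the Usp7 experiment (right). Points are edgeR estimates from the 4 libraries of each experiment and bars are 1 SE; filled points passed at an adjusted p under 0.05. Only Bub1 (1.49) and Mad2l1 (1.44) in the Ssrp1 panel are filled; the Usp7 values lie between -0.48 and 0.34.

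The other 3 checkpoint genes did not move as a block with Bub1 and Mad2l1. Ttk, the Mps1 kinase, was at 53.9 and 81.0 CPM without and 115 and 102 CPM with the knockout (log2 0.72, SE 0.30, adjusted p = 0.23). All the Ttk knockout values were above the controls, but the change missed the adjusted threshold. Bub1b, which encodes the BubR1 protein of the mitotic checkpoint complex, was at 333 and 362 CPM in control cells and, with the knockout, 249 and 324 CPM (log2 -0.23, adjusted p = 0.73). Bub3, the partner of both Bub1 and BubR1, was at 321 and 226 CPM without and 182 and 176 CPM with the knockout (log2 -0.56, adjusted p = 0.32). For Bub1b and Bub3 the controls were the higher group, the opposite order to Bub1 and Mad2l1, without passing the test.

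**Figure D4:**
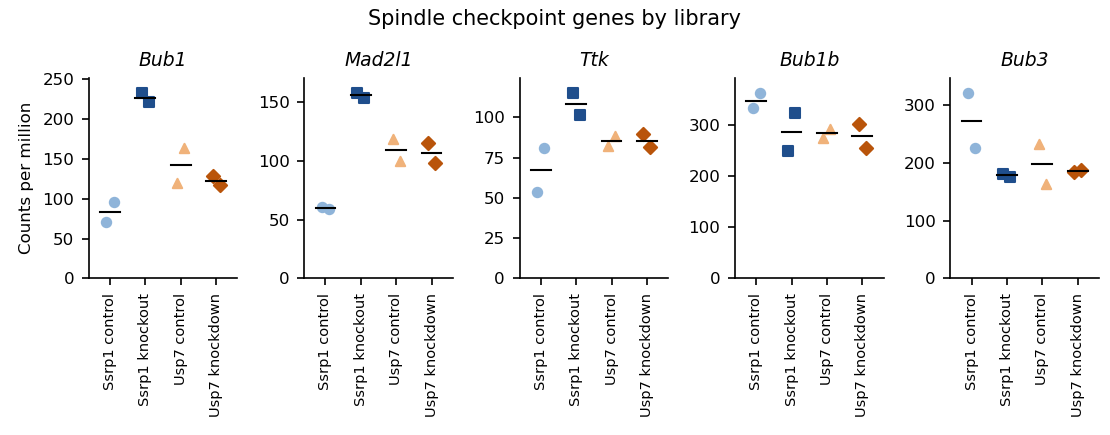
CPM of the 5 spindle checkpoint genes in each library (symbols) with the mean of each group of 2 (bars), each panel on its own axis from 0. In Bub1 and Mad2l1 the Ssrp1 controls (70.9 and 96.4 CPM, 60.4 and 58.8 CPM) are the lowest of the 8 libraries and the Ssrp1 knockout libraries the highest, while the Usp7 control and knockdown libraries lie between them.

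Among the 8 cyclin, kinase and phosphatase genes, no change passed the test and log2 values ran from -0.60 (Aurka) to 0.42 (Ccna2). Ccnb1, the main mitotic cyclin, was at 626 and 529 CPM in control cells and, with the knockout, 434 and 381 CPM (log2 -0.45, SE 0.28, adjusted p = 0.44). Its groups were apart, with the controls above. Cdk1, its kinase, was at 288 and 265 CPM against 248 and 296 CPM, overlapping ranges with a log2 change of 0.03. Plk1 was at 233 and 180.0 CPM without and 148 and 139.5 CPM with the knockout (log2 -0.47, adjusted p = 0.39). Aurka, the kinase of the spindle poles, was at 271 and 184 CPM against 142 and 147 CPM (log2 -0.60, adjusted p = 0.29). For both kinases each knockout library was below each control. Cdc25c, which encodes a phosphatase that activates Cdk1, was at 40.6 and 45.3 CPM against 31.5 and 38.7 CPM (log2 -0.24, adjusted p = 0.73). Ccna2 overlaps Exosc9 on the other strand, whose counts were 215 and 376 in the controls and 723 and 698 in the knockout; since the strand mode of the counting is not given, reads of the pair may not be separated.

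The 4 genes of the chromosomal passenger complex, which corrects wrong attachments at the centromere, had log2 changes between -0.46 and -0.02, none past the test. Birc5, which encodes survivin of that complex, was at 263 and 186 CPM in control cells and, with the knockout, 157 and 156 CPM (log2 -0.46, adjusted p = 0.41), with each knockout library below each control. At the centromere, the histone variant gene Cenpa was at 254 and 218 CPM against 159 and 179 CPM (log2 -0.43, adjusted p = 0.43). The kinetochore motor gene Cenpe had a log2 change of 0.49 and Cenpf one of 0.29, so the 3 centromere genes were split in sign. The spindle genes Kif11, Kif2c, Tpx2, Nusap1 and Hmmr lay between -0.17 and 0.34. Cdc20 was at 408 and 287 CPM without and 239 and 276 CPM with the knockout (log2 -0.38, adjusted p = 0.53). Ube2c, the E2 enzyme that starts ubiquitin chains for the anaphase-promoting complex, was at 361 and 245 CPM against 287 and 251 CPM (log2 -0.12). The Cdc20 groups were apart with the controls above, and the Ube2c groups overlapped.

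Of the 5 cytokinesis genes, Kif20a, a kinesin of the central spindle, had the lowest log2 change of all 35 genes. It was at 314 and 243 CPM in control cells and, with the knockout, 156 and 183 CPM (log2 -0.66, SE 0.27, adjusted p = 0.22), with each knockout library below each control but no call. Kif23, Prc1, Anln and Ect2 lay between 0.06 and 0.23. Top2a, which untangles sister chromatids, was at 713 and 848 CPM against 629 and 749 CPM (log2 -0.13). Mki67, the proliferation marker that coats mitotic chromosomes, was at 97.0 and 214 CPM against 189.7 and 174 CPM (log2 0.26, SE 0.36). Its 2 controls differed by 1.14 on the log2 scale, the widest replicate gap among the 35 genes in any group, and both knockout values lay between them. Foxm1, the transcription factor of the late cell cycle programme, was at 65.8 and 76.4 CPM against 60.3 and 44.6 CPM (log2 -0.39, adjusted p = 0.53). Over the 33 genes that missed the test the SE had a median of 0.276 on the log2 scale. Kif20a and Ttk had unadjusted p of 0.032 and 0.033 (edgeR) but did not pass after adjustment over all genes tested.

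The Ssrp1 change varied with the base composition of the transcripts. Mad2l1 had the lowest GC content of the 35 genes (40.1%), followed by Ect2 (40.2%) and Bub1 (41.0%). Ect2, a cytokinesis gene of like base composition, had a log2 change of 0.17. Across the 35 genes the correlation of GC content with the log2 change was -0.62 (Pearson) and -0.69 (Spearman), genes being points that share the same 4 libraries. Over all genes with a GC value it was -0.40 and -0.41. Split by GC content into 3 parts, the genes of the lowest part had a median log2 change of 0.31 and those of the highest -0.33. With a correction for GC content and exon length in the fit, Bub1 stood at log2 0.78 (adjusted p = 0.14, edgeR) and Mad2l1 at 0.62 (adjusted p = 0.27), and 0 of the 35 genes passed. The knockout libraries also differed from their controls in the share of mitochondrial counts (7.31% and 2.81% against 0.732% and 0.776%), in the share of ribosomal protein gene counts (7.94% and 9.33% against 14.8% and 11.3%), and in the summed level of 10 two-cell-like genes (759 and 1266 CPM against 218.5 and 315.2 CPM, with at least 9 of the 10 having counts). The summed levels of 10 primitive endoderm markers (381 and 465 CPM against 243 and 219 CPM, at least 9 having counts) and 10 trophoblast markers (104 and 161 CPM against 85.1 and 87.1 CPM, at least 8 having counts) were higher in the knockout libraries too. Eif1a held 342 and 228 CPM of the two-cell-like sum against 175 and 202 CPM, most of the control sum. The rest of that list was higher in the knockout too, Zscan4c for one (103 and 337 CPM against 16.3 and 55.6 CPM). Sparc held most of the endoderm sum (278 and 344 CPM against 187 and 157 CPM). Among the trophoblast markers Krt8 rose mainly in knockout replicate 2 (16.4 and 45.3 CPM against 16.2 and 12.6 CPM). The part of these differences in the Bub1 and Mad2l1 results was not tested.

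**Figure D5:**
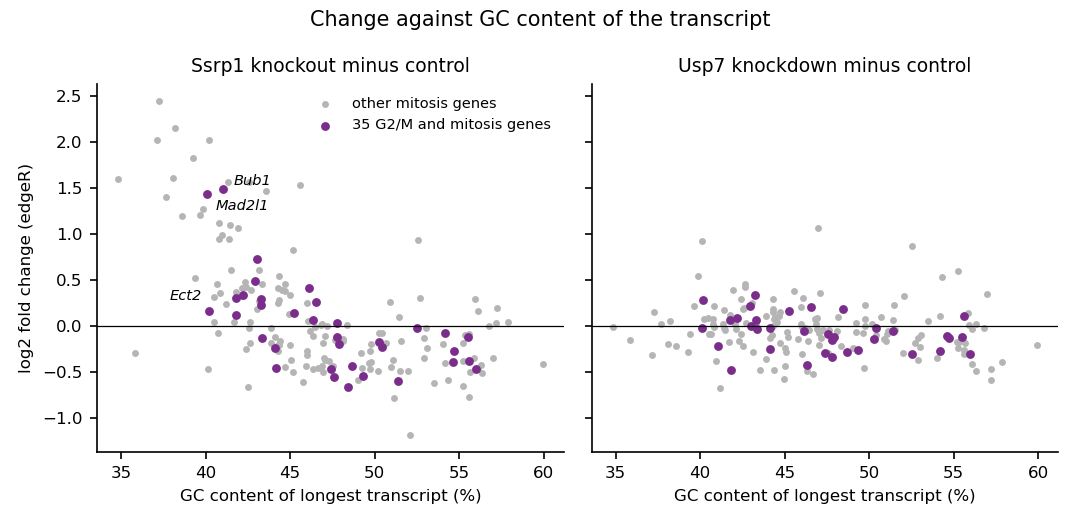
Fitted log2 fold change against the GC content of the longest transcript, for the 35 genes (purple) and the other mitosis genes tested (grey; Ccnb3, with 0 counts in the Usp7 controls, is not drawn), in the Ssrp1 experiment (left) and the Usp7 experiment (right). In the left panel the values fall with GC content (Pearson -0.62 over the 35 genes), with Mad2l1 and Bub1 at the low-GC end; the right panel is flatter (-0.30).

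The Usp7 comparison asked the same of knockdown and control cells. No gene of the 35 passed the test (edgeR), against 476 of 15915 genes tested (2.99%; 376 higher, 2.36%, and 100 lower, 0.628%). At an unadjusted p under 0.05 only Nusap1, a microtubule bundling gene of the spindle, was lower and 0 were higher, against 16.7% of all genes (7.18% lower and 9.52% higher), and DESeq2 called 0, against 4.38% (3.07% higher and 1.31% lower). Log2 changes ran from -0.48 to 0.34 with a median SE of 0.195. The median was -0.09 over the 35 genes and -0.02 over all genes tested, with 25 genes below 0. When libraries were scaled by their totals alone it became 0.001, with 17 genes below 0. Ranges of the groups were apart for 10 genes (47.6% of all genes tested), 3 with the knockdown above (24.7%) and 7 with the knockdown below (22.9%).

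Nusap1 was at 91.8 and 82.3 CPM in the Usp7 controls and 64.0 and 60.9 CPM in the knockdown (log2 -0.48, SE 0.18, adjusted p = 0.21, edgeR), both knockdown libraries being below both controls. In the Ssrp1 experiment it had been at 95.7 and 104 CPM against 123 and 115 CPM. Ccnb1 was at 402 and 386 CPM without and 414 and 364 CPM with the knockdown (log2 -0.02). Cdk1 was at 168 and 109.8 CPM against 119 and 101 CPM (log2 -0.34, adjusted p = 0.49). The Ccnb1 and Cdk1 groups both overlapped. Cdc25c was at 20.7 and 18.8 CPM against 17.5 and 15.7 CPM (log2 -0.25, adjusted p = 0.61). Plk1 was at 251 and 171 CPM against 176 and 166 CPM (log2 -0.30), and Aurka at 162 and 124 CPM against 144 and 130.2 CPM (log2 -0.06). Control replicate 1 held the highest of the 4 values for each of Cdk1, Plk1 and Aurka.

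The checkpoint genes that rose in the Ssrp1 knockout gave no call here. Bub1 was at 120.1 and 164 CPM in the Usp7 controls and 128 and 117 CPM in the knockdown (log2 -0.22, SE 0.21). Mad2l1 was at 118 and 99.5 CPM against 116 and 98.2 CPM (log2 -0.03, SE 0.19). Ttk was at 82.4 and 88.4 CPM against 89.4 and 81.5 CPM, and Bub1b at 275 and 292 CPM against 303 and 255 CPM (log2 -0.02). In each of these 4 genes the groups overlapped.

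Of the remaining genes followed in full, Birc5 was at 171 and 114 CPM in control cells and, with the knockdown, 123 and 109 CPM (log2 -0.29, adjusted p = 0.55). Cenpa was at 175 and 176 CPM against 148 and 141 CPM (log2 -0.28, adjusted p = 0.47). Cdc20 was at 455 and 338 CPM against 397 and 456 CPM (log2 0.11). Only the Cenpa groups were apart among these 3. Ube2c was at 329.7 and 209 CPM against 243 and 251 CPM (log2 -0.12), and Kif20a at 173 and 189.5 CPM against 215 and 199 CPM (log2 0.19). Top2a was at 724 and 816 CPM against 809.9 and 701 CPM (log2 -0.03). Mki67 was at 232 and 309.8 CPM against 326 and 303 CPM (log2 0.21), and Foxm1 at 82.7 and 83.4 CPM against 73.1 and 80.9 CPM (log2 -0.11). The Kif20a and Foxm1 groups were apart in opposite directions, and the others overlapped. By role, the 3 centromere genes ran from -0.28 to 0.34, the 5 cytokinesis genes from -0.43 (Kif23) to 0.28 (Ect2), and the 4 passenger complex genes from -0.31 to -0.12. Without Usp7 control replicate 2, 5 of the 35 genes were called (Cenpf higher; Cdk1, Plk1, Birc5 and Nusap1 lower), when 22.5% of all genes were called as well. The summed primitive endoderm markers were at 234 and 226 CPM in the Usp7 controls and 341 and 344 CPM in the knockdown, the trophoblast markers at 64.1 and 78.2 CPM against 87.5 and 88.6 CPM, and the embryonic stem cell markers at 7402 and 6167 CPM against 5479 and 5127 CPM. Sparc held most of the endoderm sum (163 and 143 CPM against 266 and 257 CPM). Of the trophoblast markers Tfap2c rose (26.6 and 33.5 CPM against 53.8 and 46.2 CPM), as did Eomes. Krt8 (16 and 17.5 CPM against 7.65 and 10.9 CPM) and Ascl2 (4.99 and 6.6 CPM against 3.17 and 3.09 CPM) fell. Nanog rose (466 and 399 CPM against 548 and 498 CPM) while the summed stem cell markers fell. The part of these shifts in the Usp7 values was not tested.

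Cdkn1a, whose protein p21 inhibits cyclin-dependent kinases and so favours the DREAM complex, was chosen after its value was seen. It rose in the knockdown, and was at 57.1 and 58.0 CPM in the Usp7 controls and 151 and 169 CPM in the knockdown (2.78-fold, adjusted p = 0.0018, edgeR). In the Ssrp1 experiment it was at 105 and 74.5 CPM against 37.9 and 104 CPM (adjusted p = 0.78).

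Whether the 2 perturbations differed was tested directly, by subtracting the Usp7 change from the Ssrp1 change in a model of all 8 libraries. Bub1 (log2 difference 1.65, SE 0.33, adjusted p = 0.044, edgeR) and Mad2l1 (log2 difference 1.41, SE 0.29, adjusted p = 0.049) passed, 2 of 35 genes against 171 of 17052 genes tested (1.00%; 0.610% above 0 and 0.393% below). DESeq2 called the same 2 genes, both above 0, against 3.95% of all genes (2.49% above and 1.46% below). At an unadjusted p under 0.05 edgeR gave 3 genes above 0 and 1 below, against 15.1% (9.19% and 5.95%). For both genes the difference came with the knockout above its controls and the knockdown near its own. The remaining 33 differences ran from -0.91 (Kif20a, adjusted p = 0.19) to 0.74 (Nusap1, adjusted p = 0.24). Both calls sat close to the threshold. With DESeq2 size factors Mad2l1 missed it (adjusted p = 0.054). Both were lost with libraries scaled by totals alone (adjusted p = 0.1 for Bub1 and 0.059 for Mad2l1), with the GC and length correction (0.13 and 0.3), and on leaving out any 1 library other than an Ssrp1 knockout one (0.051 to 0.34 and 0.095 to 0.38).

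The 2 control groups were compared as well, since the Bub1 and Mad2l1 values depend on where the Ssrp1 controls lie. The contrast holds every difference between the experiments (culture, vector, selection and library making), which cannot be told apart. Against the Ssrp1 controls, the Usp7 controls had higher Mad2l1 (118 and 99.5 CPM against 60.4 and 58.8 CPM, 1.83-fold, adjusted p = 0.03, edgeR), lower Cdk1 (168 and 109.8 CPM against 288 and 265 CPM, 1.99-fold, adjusted p = 0.034) and lower Cdc25c (20.7 and 18.8 CPM against 40.6 and 45.3 CPM, 2.18-fold, adjusted p = 0.02). These are 3 of 35 genes, against 7.98% of 17052 genes tested (3.92% higher and 4.06% lower), again near the background. At an unadjusted p under 0.05, 5 genes were higher and 9 lower, against 26.6% of all genes (13.7% and 13.0%), and DESeq2 called 3 higher and 2 lower, against 13.4% (6.28% and 7.07%). The 2 control groups did not overlap in 23 of the 35 genes (56.8% of all genes), 9 with the Usp7 controls above (29.6%) and 14 with them below (27.2%). With the GC and length correction Mad2l1 lost its call (log2 0.21, adjusted p = 0.64), Cdk1 and Cdc25c kept theirs, and Hmmr was called lower (7.42% of all genes called). All 3 calls were lost without Ssrp1 control replicate 1 (0 of the 35 called, 0.779% of all genes), without Usp7 control replicate 2 (0 of the 35, 0.743%) and without Ssrp1 control replicate 2, when Mki67 alone was called (7.34%). Cdk1 alone was called without Usp7 control replicate 1 (2.40% of all genes), and Cdc25c alone without knockdown replicate 1 (3.31%) or 2 (3.09%). Without either knockout library 5 were called, Bub1 and Cenpe joining the 3 (15.5% of all genes each time). Bub1 was at 120.1 and 164 CPM against 70.9 and 96.4 CPM (log2 0.77, adjusted p = 0.068).

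Both Ssrp1 controls were lower than the other 6 libraries for 5 of the 35 genes (11.2% of all 17052 genes were so), Bub1, Mad2l1, Ttk, Cenpe and Cenpf. Both were higher than the other 6 for 11 genes (9.78% of all genes were so): Ccnb1, Ccnb2, Cdc25b, Cdc25c, Aurka, Bub1b, Birc5, Cenpa, Kif2c, Tpx2 and Kif20a.

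A list of 148 other mitosis genes, 146 of them found in the tables, gave the setting for the 35. In the Ssrp1 experiment 10 of the 145 tested rose and 0 fell (edgeR), against the 3.39% and 0.324% of all genes. With an unadjusted p under 0.05, 22 were higher and 2 lower, against 13.3% and 4.95% of all genes, and DESeq2 called 16 higher and 1 lower, against 5.70% and 1.34%. Among the 10 were Anapc10 of the anaphase-promoting complex, the condensin genes Smc4 and Ncapg, the kinetochore and centromere genes Spc25, Knl1 and Mis12, the spindle genes Kif18a and Haus6, and the mitotic kinase gene Pbk. Kif18a, which damps chromosome movement, was at 5.45 and 15.4 CPM without and 51.3 and 39.7 CPM with the knockout (4.45-fold, adjusted p = 0.033). Smc4 was at 34.9 and 66.8 CPM against 231 and 172 CPM (4.07-fold, adjusted p = 0.016), and Anapc10 at 15.9 and 18.9 CPM against 67.9 and 51.3 CPM (3.53-fold, adjusted p = 0.016). In these 3 the groups were apart. For 9 of the 10 both Ssrp1 controls were the lowest of the 8 libraries (24 of the 146 in the list, 11.2% of all genes). The 10 were picked for a rise over these controls. Smc4 was at 183 and 203 CPM in the Usp7 controls (3.79-fold above the Ssrp1 controls, adjusted p = 0.0058, edgeR), overlapping its knockout values. Anapc10 was at 37.0 and 21.2 CPM there, below its knockout values. The part of low Ssrp1 controls in these calls was not tested.

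The GC content of the 10 genes was between 34.8% and 45.6%, against a median of 46.0% over the 145 and 49.9% over all genes with a GC value. None of the 10 passed with the GC and length correction, which left them at log2 0.28 to 1.26 (adjusted p 0.052 to 0.75, edgeR). Mis12 went from log2 1.53 to 1.26 and Smc4 from 2.02 to 1.25 (adjusted p = 0.052 for both), while Ncapg went from 1.60 to 0.28. Without Ssrp1 control replicate 1, 0 of the list were called, when 0.117% of all genes were. Without knockout replicate 2 it was 21, when 11.5% of all genes were called, and without the library labelled knockout replicate 1 it was 9, when 8.98% were. The median log2 change over the 145 was -0.07.

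In the Usp7 experiment 2 of the 146 other mitosis genes rose and 0 fell (edgeR), against 2.36% and 0.628% of all genes. With an unadjusted p under 0.05, 7 were higher and 6 lower, against 9.52% and 7.18%, and DESeq2 called 2 higher and 0 lower, against 3.07% and 1.31%. Ccnb3, a B-type cyclin of meiosis, had no count in either control and 18 and 45 counts in the 2 knockdown libraries. Set against an assumed floor of 3 counts over the control group, it was 19.7-fold higher, a size that rests on that floor. Ccnb3 passed the filter on low counts only through the knockdown libraries, so its test (adjusted p = 0.012, edgeR) is not independent support. In the Ssrp1 table its counts were 1 and 2 without and 4 and 12 with the knockout, too few to be tested. Rbl2, which encodes the pocket protein p130 of the DREAM complex, was at 9.86 and 14.1 CPM in control cells and, with the knockdown, 26.3 and 23.9 CPM (2.09-fold, SE 0.24 on the log2 scale, adjusted p = 0.043). Both knockdown libraries were above both controls. With no filter on low counts neither gene was called. The count for the list moved from 0 without knockdown replicate 2 to 31 without Usp7 control replicate 2, when 0.253% and 22.5% of all genes were called.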

How the data were processed

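Polyadenylated RNA was sequenced from 8 libraries, grouped by sample title. The values used are raw counts of reads per gene as deposited, in 2 tables of 4 libraries. Per the submitters' processing notes, cutadapt, HISAT2 and featureCounts were used with mouse build mm10; versions, annotation release, strand mode and handling of multi-mapped reads were not given in the sources used here. The 92 spike-in rows were all 0 and were left out. Symbols, coordinates and exon lengths came from GENCODE vM21 (67 identifiers without a symbol), GC content from each gene's longest transcript, and promoters from RefSeq (GRCm38.p6). Of the 35 genes, 18 overlap another annotated gene, Bub1 and Mad2l1 not among them, and reads of pseudogenes such as Ccnb2-ps (26 to 109 counts) may be split from their parent gene.

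Each experiment was fitted alone with edgeR 4.0.16 in R 4.3.3 (filterByExpr with a minimum count of 10, TMM, quasi-likelihood test, Benjamini-Hochberg adjustment over all genes tested, called under 0.05); SEs are the log2 change over the root of the F statistic. The difference between experiments and the contrast of controls used 1 joint fit of 8 libraries. CPM values used joint TMM factors. All 35 genes passed the filter in each fit. Alternatives were DESeq2 1.42.0 and its size factors, library totals, no filter, a GC content and exon length correction (splines with 4 knots each), a replicate block, the joint fit, and each library left out. As a check of the code, the edgeR fits of each experiment and of their difference were run on counts simulated from the fitted spread. No GC effect was simulated, so this does not test how well the model describes these libraries. Replicates differed by more than sampling noise (chi-square per gene 12.6 to 44.9 and, in the knockout, 85.6), so each counted as 1 sample. The 35 genes are defined by symbol alone, but they, the lists and the tests were chosen with earlier results of these data known. Genes given in full were those called in any comparison, those at an unadjusted p under 0.05 in the Ssrp1 or Usp7 comparison, and 12 central genes (Ccnb1, Cdk1, Plk1, Aurka, Cdc20, Bub1b, Top2a, Mki67, Foxm1, Ube2c, Cenpa and Birc5); of the other mitosis genes, those called, up to the 4 with the largest change per direction. A gene counted among the other mitosis genes is not reported here by name.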

Additional observations from a re-analysis of the deposited data

Results flagged for a closer look

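Of the mitosis genes followed here, 4 changed differently in the Ssrp1 and Usp7 experiments by the test of the difference itself (edgeR, joint fit of 8 libraries; 1.00% of all genes passed). The Ssrp1 change minus the Usp7 change was 1.65 on the log2 scale for Bub1 (adjusted p = 0.044) and 1.41 for Mad2l1 (adjusted p = 0.049). It was 2.06 for Anapc10, a subunit gene of the anaphase-promoting complex (15.9 and 18.9 CPM in Ssrp1_Control, 67.9 and 51.3 in Ssrp1_KO, 37.0 and 21.2 in Usp7_Control, 24.9 and 22.8 in Usp7_KD; adjusted p = 0.044). For Pbk, a mitotic kinase gene, it was 1.90 (26.4 and 30.9, 87.2 and 66.5, 44.5 and 37.2, then 33.9 and 24.6 CPM in the same order; adjusted p = 0.035). In these 4 genes both Ssrp1 knockout libraries held the highest values of the 8. The S phase gene Ccne2 (log2 difference 2.45, adjusted p = 0.031) and the knocked-down gene Usp7 itself (log2 difference 1.53, adjusted p = 0.037) passed the same test. With the GC and length correction Anapc10 fell to a log2 difference of 1.23 (adjusted p = 0.17, edgeR) and Ccne2 to 1.16 (adjusted p = 0.2). Bub1 and Mad2l1 lost their calls there too, when 0.868% of all genes were called. With library totals alone no mitosis gene followed here passed, when 0.469% of all genes did. With 2 libraries a group, no single library was tested as standing apart.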

How the results depend on the processing

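The main limit is 2 libraries a group, and each cause of the changes listed here was not tested unless the setting itself removes samples. Among the 35 genes, the 2 Ssrp1 calls became 0 with the GC and length correction and 0 to 2 on leaving out each library; the 0 Usp7 calls stayed 0 except for up to 5 on leaving out each library. The 2 calls of the difference became 1 with DESeq2 size factors, 0 with library totals, 0 with the GC and length correction and 0 to 2 with a library left out. The 3 calls between controls became 1 with library totals, 5 with DESeq2, 1 with the replicate block and 0 to 5 with a library left out.

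The median log2 change of the 35 genes in the Ssrp1 experiment (-0.115) was -0.054 with library totals, -0.178 with the GC and length correction, -0.164 in the joint fit and -0.179 to -0.064 with a library left out. The Usp7 median (-0.088) was 0.001 with library totals and -0.143 to -0.018 with a library left out. The median difference (-0.072) ran from -0.159 to 0.004 with a library left out. The median between controls (-0.117) was 0.029 with library totals, -0.201 with the GC and length correction and -0.19 to -0.122 with a library left out.

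Of the other mitosis genes, the 10 Ssrp1 calls became 6 with library totals, 18 with no filter, 17 with DESeq2, 1 with the GC and length correction, 19 in the joint fit and 0 to 21 with a library left out. The 2 Usp7 calls became 1 with library totals, 0 with no filter, 1 in the joint fit and 0 to 31 with a library left out. The 2 calls of the difference became 0 with library totals, 15 with no filter, 12 with DESeq2, 1 with the GC and length correction and 0 to 15 with a library left out. The 18 calls between controls became 29 with DESeq2 and 1 to 30 with a library left out. The share of all genes called moved too. In the Ssrp1 test it was 3.71%, and 2.06% with library totals, 5.11% with no filter, 7.04% with DESeq2, 1.76% with the GC and length correction, 7.71% in the joint fit and 0.117% to 11.5% with a library left out. In the Usp7 test it was 2.99%, and 2.43% with library totals, 0.354% with no filter, 0.457% in the joint fit and 0.253% to 22.5% with a library left out. For the difference it was 1.00%, and 0.968% with DESeq2 size factors, 0.469% with library totals, 2.99% with no filter, 3.95% with DESeq2, 0.868% with the GC and length correction and 0.00550% to 6.22% with a library left out. Between controls it was 7.98%, and 1194 of 17052 genes with library totals, 13.4% with DESeq2, 5.02% with the replicate block and 0.743% to 15.5% with a library left out. Deviations of same-numbered libraries from their group means correlated at 0.131 (Ssrp1) and 0.214 (Usp7). With 1 pair of numbers an experiment, this cannot tell whether same-numbered libraries share more than a number. With the replicate block, 2, 0 and 2 of the 35 genes were called in the Ssrp1, Usp7 and difference tests, and 17, 4 and 9 of the other mitosis genes, when 6.27%, 9.24% and 3.08% of all genes were. A comparison that left 1 library in a group assumed that it varies like the others.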

Other observations

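S phase genes act before the genes described above, and their values in the Usp7 knockdown lay mostly to one side. Of 42 such genes (Mcm, Orc and DNA polymerase genes among them), 40 had a log2 change below 0, with a median of -0.32 against -0.02 over all genes tested. With other scalings of the libraries 38 to 40 were below 0 and the median was -0.24 to -0.33. At an unadjusted p under 0.05, 11 were lower and 0 higher, against 7.18% and 9.52% of all genes. With edgeR 0 passed the adjusted threshold, against 2.99% of all genes (2.36% higher and 0.628% lower). DESeq2 called 1 lower, against 4.38% of all genes (3.07% higher and 1.31% lower). Of all 15915 genes, 8207 had a log2 change below 0, and 1143 were lower at an unadjusted p under 0.05. Without Usp7 control replicate 2, 19 were called lower, when 22.5% of all genes were called, and without each of the other 3 libraries 0 were, when 0.253% to 3.71% of all genes were called. On leaving out a library the median ran from -0.43 (without Usp7 control replicate 2) to -0.21 (without knockdown replicate 2), and 36 to 40 genes were below 0. The replicate block called 5 lower and the GC and length correction 3 lower, when 9.24% and 5.34% of all genes were called.

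In the Ssrp1 knockout the median of the same list was -0.10. Ccne2, which encodes cyclin E2 of S phase entry, was the only gene of the 42 called. Of all genes tested 3.71% were called (3.39% higher and 0.324% lower), so this count says nothing particular of the list. Ccne2 was at 3.52 and 3.13 CPM in Ssrp1_Control and 22.3 and 13.5 CPM in Ssrp1_KO (5.57-fold, adjusted p = 0.019, edgeR). The Ccne2 call was lost with either Ssrp1 control library left out. Those fits hold 1 control library and called a smaller share of all genes than the full fit. None of the 42 was called after correction for GC content and exon length (edgeR), when 1.76% of all genes were called. In the Usp7 libraries Ccne2 was at 14.7 and 15.9 CPM against 14.5 and 15.5 CPM.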
